A study of Homo sapiens with 6 samples.

Results

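Mitochondria carry their own ribosome, the mitoribosome, which translates the few messages made from mitochondrial DNA into core subunits of the respiratory chain and of ATP synthase. Its RNA is made inside the organelle, whereas every one of its proteins is encoded in the nucleus, translated in the cytosol and imported. A large subunit joins amino acids and a small subunit reads the message, and both hold proteins inherited from the bacterial ancestor beside proteins that bacterial ribosomes lack. The genes described here are those whose single gene symbol in the platform annotation is MRPL or MRPS followed by a number and, for some, 1 letter. They numbered 73 of the 18404 genes tested, 50 of the large subunit and 23 of the small subunit. MRPS30 and MRPS18A are named for the small subunit but sit in the large one and were counted there. The symbols MRPL51, MRPS24, MRPS28 and MRPS6 lie on probesets with several symbols and were not used here.

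The cells were PC-3, an established androgen-independent prostate carcinoma line, grown in DMEM with 10% serum. 3 arrays came from cells given menthol, the cooling compound of mint, dissolved in ethanol, and 3 vehicle arrays from cells given ethanol alone, in both groups at 0.1%. How much menthol was used and for how long was not given in these sources, and all arrays come from 1 cell line. RNA was measured on Affymetrix whole-transcript arrays as intensity, a brightness. It compares RNA amounts between arrays for 1 gene but not between genes. Ranks, percentiles and sums of signal over genes given below describe brightness, not RNA amounts. A gene was called changed where limma's adjusted p was under 0.05, with Benjamini-Hochberg adjustment over the 18404 genes. Whether the replicates were separate cultures is not stated, and the p-values therefore reflect the spread between these arrays alone, part or all of which may be technical.

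The epithelial markers KRT8, KRT18, KRT19, EPCAM and CDH1 lay between the 87.6th and the 99.0th percentile of gene signals, and all 5 were higher with menthol. Their mean log2 values summed to 50.5 in vehicle and 54.4 in menthol. Markers of leukocytes lay between the 2.96th and 29.1th percentile, with sums of 11.5 and 11.9, and those of endothelium between the 15.8th and 31.4th, with sums of 17.6 and 18.4. The 5 fibroblast markers lay between the 0.72th and 70.7th percentile, with sums of 23.9 in both groups. Among these lists PECAM1, COL1A2 and DCN rose and COL3A1 fell. The part of these shifts in the results below was not tested, and in bulk RNA fewer cells of a type and less RNA per cell cannot be told apart.

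Most mitoribosomal protein genes moved little under menthol, and those that passed the test mostly fell. Of the 73 genes, 17 fell and 5 rose, while 51 did not pass. The lower genes included MRPL2, MRPL43, MRPL39 and MRPL38 of the large subunit and MRPS18B of the small one, and the higher genes were MRPS33, MRPL53, MRPL24, MRPL32 and MRPL46. The called share was 30.1%, beside 29.1% of all genes. Lower calls made up 23.3% of the set against 14.5% of all genes, and higher calls 6.85% against 14.6%. The members are bright genes, with a median at the 80.4th percentile of signal, and 51 lay among the 4601 brightest genes. Of those 4601 genes 44.1% were called, 26.9% lower and 17.2% higher, and of the 51 members there 33.3% were called, 13 lower and 4 higher. Beside equally bright genes the share of lower members, 25.5%, was thus close to the background. The share of higher members there, 7.84%, was below it. Of the 22 members outside the brightest genes 18.2% fell and 4.55% rose, against 10.4% and 13.7% of the 13803 genes there. These differences were not tested.

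The sizes were modest. The estimates ran from -0.69 to 0.60 on the log2 scale, with a median of -0.05 over the 73 genes, 0.03 over all genes and -0.05 over the 4601 brightest genes. The quartiles of the set were -0.25 and 0.03, and 47 estimates lay below 0. A change of at least 1.5-fold was reached by MRPL2 and MRPL43, which were lower, and MRPS33, which was higher, beside 5.61% of all genes. The 3 menthol values lay wholly above or below the 3 vehicle values for 43 members, 14 above and 29 below, which is 58.9% of the set. The same held for 45.3% of all genes, 23.5% above and 21.7% below. Among the 4601 brightest genes it held for 66.5%, with 1230 above and 1831 below, and for 68.6% of the 51 members there. The split into 5 higher and 17 lower became 9 higher and 14 lower both after quantile and after cyclic loess normalization. Without vehicle replicate 3 the count of lower members was 11.

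**Figure D1:**
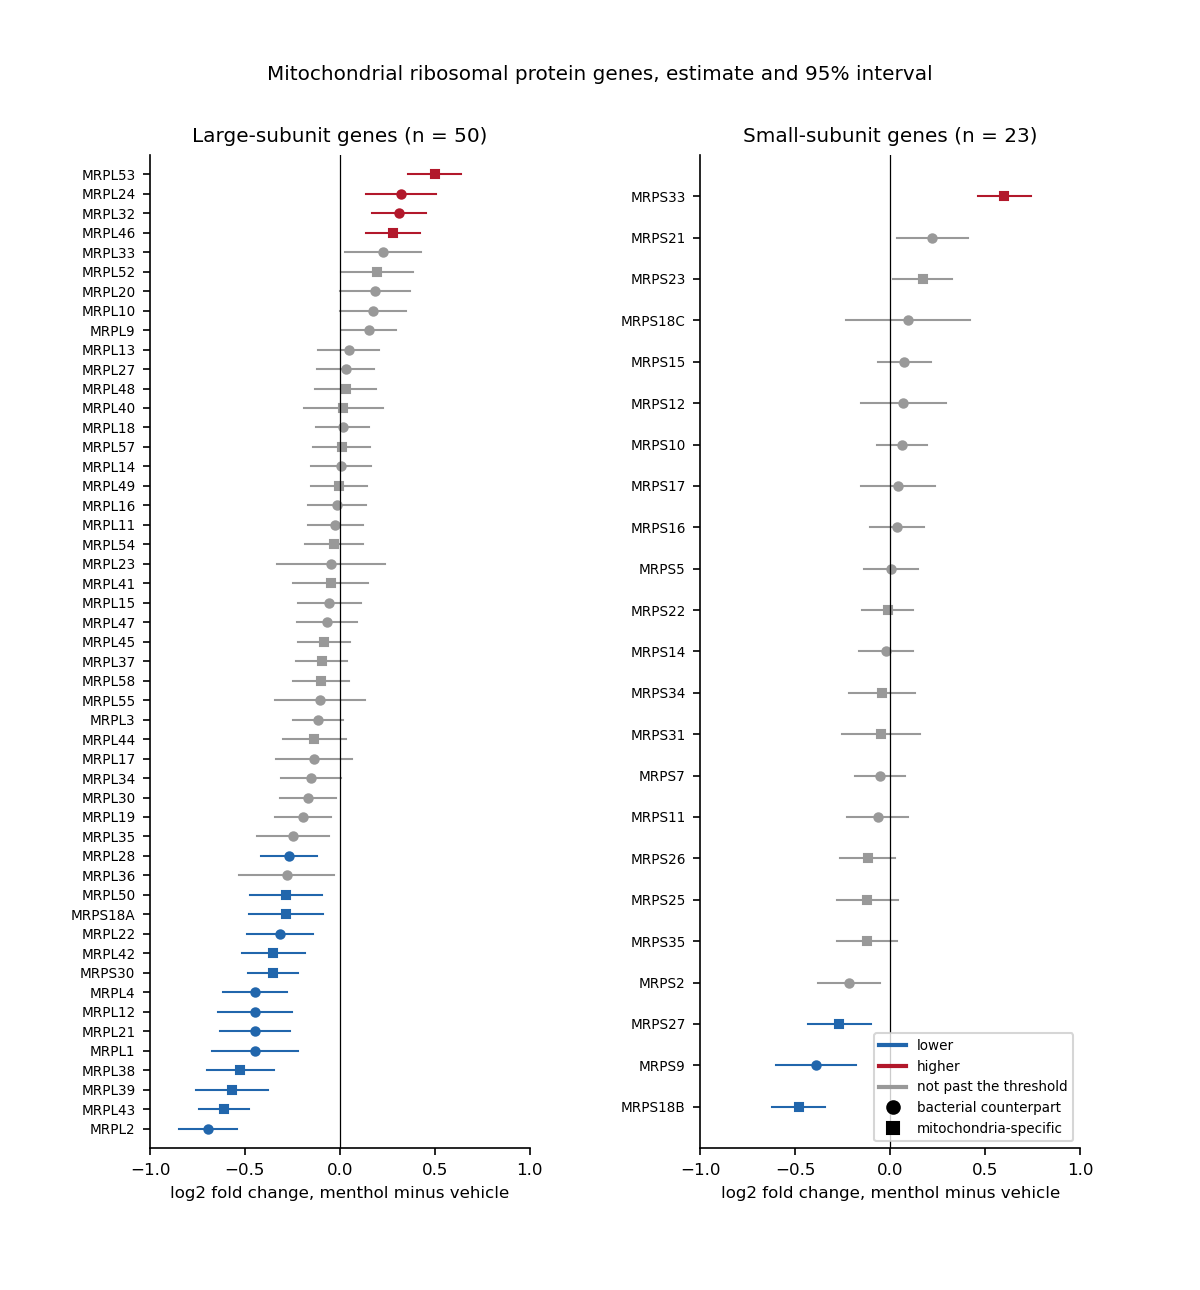
Log2 fold change (menthol minus vehicle) of each of the 73 genes with its 95% confidence interval from limma, split into 50 large-subunit and 23 small-subunit genes. The 17 genes drawn as lower run from MRPL2 at -0.69 to MRPS27 at -0.27, the 5 drawn as higher from MRPL46 at 0.28 to MRPS33 at 0.60, and most of the remaining genes lie near 0.

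Of the 50 large-subunit genes 14 fell and 4 rose, which is 28.0% and 8%, with a median log2 fold change of -0.09. Among the 4601 brightest genes, which hold 36 of these 50, the shares were 26.9% and 17.2%, so the lower share was near the background. The higher count was 7 with genes under a log2 value of 6 removed or with a trended robust prior. MRPL2 encodes the counterpart of bacterial L2, a protein beside the site where peptide bonds form. Its intensity was 1429, 1489 and 1453 in the vehicle arrays and 942, 917 and 845 in the menthol arrays. The groups were far apart, with a log2 fold change of -0.69 ± 0.07 (SE, n = 3 arrays a group, adjusted p = 0.000332), the largest decrease of the set. MRPL4, MRPL21 and MRPL22 encode counterparts of bacterial L4, L21 and L22. MRPL4 read 403, 354 and 391 in vehicle and 290, 285 and 268 in menthol (-0.44 ± 0.07, adjusted p = 0.00358). MRPL21 read 507, 506 and 585 in vehicle and 412, 379 and 380 in menthol (-0.45 ± 0.08, adjusted p = 0.00509). For both genes the highest menthol array stayed below the lowest vehicle array.

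Other decreases belonged to proteins classed as mitochondria-specific, those whose unified ribosomal name marks them as particular to mitochondrial ribosomes. MRPL43 read 267, 262 and 271 in vehicle and 178, 176 and 170 in menthol, a log2 fold change of -0.61 ± 0.06 (adjusted p = 0.000328). MRPL39 read 923, 847 and 980 in vehicle and 571, 629 and 653 in menthol (-0.57 ± 0.08, adjusted p = 0.00199). The arrays of MRPL43 lay tightly together in each group, and those of MRPL39 spread more widely but did not meet. MRPL42 read 838, 865 and 938 in vehicle and 661, 681 and 728 in menthol (-0.35 ± 0.07, adjusted p = 0.00894). By class, 8 of the 43 genes with a bacterial counterpart fell and 2 rose, with a median of -0.05, and 9 of the 30 mitochondria-specific genes fell and 3 rose, with a median of -0.09. These are 18.6% and 4.65% of the first class and 30% and 10% of the second, beside 14.5% and 14.6% of all genes. Among the 4601 brightest genes, which hold 31 of the 43 and 20 of the 30, the shares were 26.9% and 17.2%. MRPS18A and MRPS18B were counted in the second class by their unified names, although both descend from bacterial S18. The lower count of the first class was 5 without vehicle replicate 3, and its higher count was 1 without menthol replicate 2 or vehicle replicate 2. Its counts were 13 lower and 5 higher with genes under a log2 value of 6 removed, 14 and 6 with a trended robust prior, and its higher count was 5 after quantile or cyclic loess normalization and 4 with array weights or with genes under 5 removed. The second class had 5 higher with genes under 6 removed. The difference between the classes was not tested.

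The stalks of the large subunit are mobile arms, 1 of which recruits the translation factors and the other of which guides spent tRNA out. Of 6 genes listed for them, 2 fell, 1 rose and 3 did not pass. The lower share was 33.3% and the higher 16.7%, beside 14.5% and 14.6% of all genes. Among the 4601 brightest genes, which hold 5 of the 6, the shares were 26.9% and 17.2%. MRPL12, which forms the tip of the factor-binding stalk, read 581, 576 and 579 in vehicle and 478, 410 and 390 in menthol. The vehicle arrays were nearly equal and the menthol arrays were all lower but spread apart (-0.45 ± 0.08, adjusted p = 0.00649). MRPL1, of the other stalk, read 358, 367 and 409 in vehicle and 251, 268 and 315 in menthol (-0.45 ± 0.10, adjusted p = 0.0122). MRPL53, a mitochondria-specific protein near the factor-binding stalk, ran the other way, at 471, 477 and 492 in vehicle and 696, 687 and 654 in menthol. Its log2 fold change was 0.50 ± 0.06 (adjusted p = 0.000907), and every menthol array lay well above every vehicle array. The stalk genes thus held changes in both directions.

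The central protuberance crowns the large subunit on the side that faces the small subunit. Among the 10 genes listed for it, MRPL38 and MRPS30 fell, MRPL46 rose and the median was 0.02. The lower share was 20% and the higher 10%, beside 14.5% and 14.6% of all genes. Among the 4601 brightest genes, which hold 6 of the 10, the shares were 26.9% and 17.2%. MRPL38 read 359, 352 and 394 in vehicle and 271, 239 and 258 in menthol (-0.52 ± 0.08, adjusted p = 0.00206). MRPS30 read 598, 592 and 577 in vehicle and 467, 458 and 458 in menthol (-0.35 ± 0.06, adjusted p = 0.00321). MRPS30 shows a decrease of moderate size with very little spread in either group. MRPL46 read 454, 490 and 466 in vehicle and 574, 556 and 583 in menthol (0.28 ± 0.06, adjusted p = 0.0119). Its call was narrowly lost without vehicle replicate 1 (adjusted p = 0.0502), which left 0 higher genes in this list.

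The exit tunnel is the channel through which a new peptide leaves the ribosome. Of 7 genes listed for it 1 fell and 1 rose, with a median of -0.08. MRPL4, which fell as given above, was not placed in this list. The lower and higher shares were 14.3% each, beside 14.5% and 14.6% of all genes. Among the 4601 brightest genes, which hold 5 of the 7, the shares were 26.9% and 17.2%. MRPL22 read 203, 210 and 235 in vehicle and 168, 171 and 181 in menthol (-0.32 ± 0.08, adjusted p = 0.0169). MRPL24 read 1039, 971 and 1053 in vehicle and 1390, 1278 and 1171 in menthol (0.32 ± 0.08, adjusted p = 0.0192). Neither call held throughout when arrays were left out. The adjusted p of MRPL22 was 0.0528 without menthol replicate 2 and 0.0512 without vehicle replicate 3, and that of MRPL24 was 0.0541 without menthol replicate 2 and 0.0687 without vehicle replicate 2.

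MRPL32, the counterpart of bacterial L32, whose precursor is trimmed inside the mitochondrion by the m-AAA protease, also rose. It read 376, 356 and 351 in vehicle and 459, 438 and 447 in menthol (0.31 ± 0.06, adjusted p = 0.00755). The arrays of each group were close to each other. MRPL50, a mitochondria-specific protein, read 382, 368 and 393 in vehicle and 287, 346 and 310.0 in menthol (-0.28 ± 0.08, adjusted p = 0.0350). Its menthol arrays were spread widely, and the adjusted p lay between 0.0648 and 0.103 without menthol replicate 1 or 3 or any single vehicle array. MRPL28, the counterpart of bacterial L28 and named after its values were seen, as the remaining lower gene, read 262, 268 and 264 in vehicle and 225, 229 and 207 in menthol (-0.27 ± 0.06, adjusted p = 0.0176). Its adjusted p was between 0.0515 and 0.0621 without vehicle replicate 1, 2 or 3.

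Of the 23 small-subunit genes 3 fell and 1 rose, which is 13.0% and 4.35%, with a median log2 fold change of -0.02. Of all genes 14.5% fell and 14.6% rose. Among the 4601 brightest genes, which hold 15 of the 23, the shares were 26.9% and 17.2%. Without vehicle replicate 3 the lower count of the small subunit was 1. The higher count was 2 without menthol replicate 3, with array weights or with genes under a log2 value of 5 removed. It was 3 after quantile or cyclic loess normalization, with genes under 6 removed or with a trended robust prior. The difference between the subunits was not tested. MRPS33, a mitochondria-specific protein, showed the largest increase of the set, at 162, 163 and 171 in vehicle and 259, 246 and 247 in menthol. The log2 fold change was 0.60 ± 0.06 (adjusted p = 0.000442), and both groups were tight. MRPS9, the counterpart of bacterial S9, read 248, 255 and 272 in vehicle and 174, 202 and 216 in menthol (-0.39 ± 0.09, adjusted p = 0.0150). It was the only call among the 13 small-subunit genes with a bacterial counterpart, and its adjusted p was 0.0540 without vehicle replicate 3, which left 0 lower calls there. Without menthol replicate 1 that count was 2. MRPS27, a pentatricopeptide repeat protein, read 539, 580 and 624 in vehicle and 490, 479 and 476 in menthol (-0.27 ± 0.07, adjusted p = 0.0259). Its vehicle arrays spread more than its menthol arrays, and its adjusted p was between 0.0614 and 0.0810 without menthol replicate 2 or 3 or vehicle replicate 2 or 3.

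Vertebrate mitochondria have 3 proteins descended from bacterial S18, and their genes gave 3 different readings. MRPS18B, built into the small subunit, read 573, 585 and 599 in vehicle and 424, 404 and 431 in menthol, a log2 fold change of -0.48 ± 0.06 (adjusted p = 0.00107). MRPS18A, built into the large subunit, read 372, 412 and 393 in vehicle and 345, 334 and 290.0 in menthol (-0.28 ± 0.08, adjusted p = 0.0381). Both genes were lower on every menthol array, with the wider margin for MRPS18B. The call of MRPS18A was lost without menthol replicate 2 or 3 or any single vehicle array, with an adjusted p between 0.0577 and 0.118. MRPS18C, the copy that takes the place of bacterial S18 in the small subunit, read 22.3, 21.1 and 29.7 in vehicle and 27.2, 22.6 and 27.6 in menthol. It was the dimmest of the 73 genes, at the 23.6th percentile of signal, its groups overlapped and its log2 fold change of 0.09 ± 0.14 did not pass (adjusted p = 0.654). The differences between these fold changes were not tested.

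**Figure D2:**
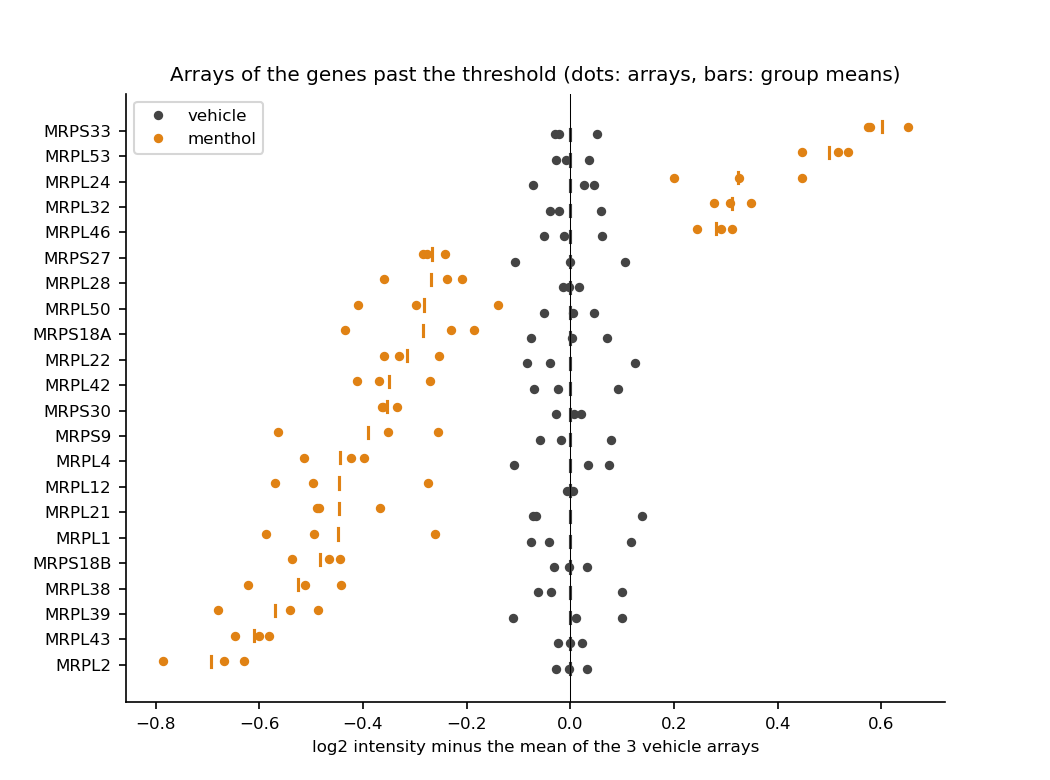
Log2 intensity of each array minus the mean of the 3 vehicle arrays for the 22 genes past the threshold, with dots for arrays and bars for the means of 3 arrays. Vehicle dots lie around 0 and menthol dots lie to 1 side of them without overlap for all 22 genes, with the narrowest gaps for genes such as MRPL50 and MRPS27.

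The decreases were shared by the 3 menthol arrays. Relative to the vehicle mean, the median log2 value of the 17 lower genes was -0.41, -0.42 and -0.44 on menthol arrays 1 to 3, and that of the 5 higher genes was 0.45, 0.33 and 0.31. These values describe genes chosen for their change. Over all 73 genes, the array medians were -0.0371, -0.0053 and 0.0368 in vehicle and -0.0440, -0.0902 and -0.0729 in menthol. The 3 menthol medians lay below the 3 vehicle medians, the nearest pair being menthol replicate 1 and vehicle replicate 1. Over the 4601 brightest genes the menthol medians were -0.0769, -0.0541 and -0.0199. Among the 22 called genes, the array farthest from the vehicle mean was menthol replicate 1 for 10 genes, replicate 3 for 9 and replicate 2 for 3.

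The remaining 51 genes had estimates between -0.28 and 0.23, and 30 of them lay within 0.1 of 0. Their 95% confidence intervals all stayed within 1.5-fold, the widest bounds being -0.53 and 0.43, and the median half-width was 0.16. At this precision changes of 1.5-fold lie outside the intervals of all these genes, whereas smaller changes lie inside the intervals of some of them. MRPS12, the counterpart of the bacterial decoding protein S12, read 236, 242 and 244 in vehicle and 291, 246 and 225 in menthol (0.07 ± 0.10, adjusted p = 0.629). Its menthol arrays lay on both sides of the vehicle arrays. Just inside the threshold were MRPS27, MRPL50 and MRPS18A, and just outside it were MRPS2 at -0.22 (adjusted p = 0.0537), MRPL19 at -0.19 (adjusted p = 0.0546) and MRPL35 at -0.25 (adjusted p = 0.0562). These 3 genes encode counterparts of bacterial S2, L19 and L35. MRPL36, named after its values were seen, has a pair of probesets that disagreed, with a difference of -0.28 for the brighter one, which was used and did not pass (adjusted p = 0.0890), and of 0.38 for the other.

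Nuclear genes for mitochondrial proteins are known to be controlled by a few promoter-binding factors, among them NRF1, the ETS factor GABP and YY1. RefSeq promoters on GRCh38.p14, from 250 bases before to 50 after the start, were matched for 66 of the 73 genes. No promoter was matched for MRPL10, MRPL13, MRPL15, MRPL2, MRPL21, MRPL23 and MRPL35. Both strands were searched for CCGGAAG (ETS), AAGATGGC (YY1) and the binding motif of NRF1, which has 1 free base in its middle. CCGGAAG was found in 29 of the 66 genes, or 43.9%, against 12.2% of the 27305 genes in the promoter table and 16.8% of the 14230 of them that were tested here. AAGATGGC was found in 19 genes, or 28.8%, against 3.52% and 4.86%. The NRF1 motif was found in 9 genes, or 13.6%, against 6.98% and 10.1%. At least 1 of the 3 was in 46 of the 66 genes, or 69.7%, against 5464 of the 27305 and 27.7% of the 14230. In 0 members did an ETS match overlap a YY1 match. Of the AAGATGGC matches 13 of 22 lay within 30 bases of the start, and 16 of 22 read on the strand of the gene. For CCGGAAG these were 24 and 20 of 43 matches, and for the NRF1 motif 1 and 8 of 11. Match positions in other genes were not examined. The letters AAGATGGC hold ATG, and whether a match lies on the start of translation was not examined.

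AAGATGGC was present in 8 of the 15 lower genes with a promoter, in 2 of the 5 higher ones and in 9 of the 46 that did not pass. CCGGAAG was present in 4, 2 and 23 of them, and the NRF1 motif in 1, 1 and 7. These are counts of letters in a window, with no test, and genes of both directions held each motif. The windows below are those of the called genes with AAGATGGC near the start, from 11 bases before the motif, with the motif in capitals. They show that MRPL46, which rose, has the same letters at a similar place to the lower genes. In most of them the motif runs on into ggcg. All are written 5′ to 3′ on the strand of the gene, and the position on GRCh38.p14 follows each name.
MRPL38, chr17:75904860-75904889, minus strand, lower: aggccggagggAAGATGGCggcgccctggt
MRPS18B, chr6:30617852-30617881, plus strand, lower: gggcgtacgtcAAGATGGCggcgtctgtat
MRPS30, chr5:44808949-44808978, plus strand, lower: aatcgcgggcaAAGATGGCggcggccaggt
MRPL42, chr12:93467511-93467540, plus strand, lower: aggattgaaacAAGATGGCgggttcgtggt
MRPL22, chr5:154941097-154941122, plus strand, lower: cgggagggcgaAAGATGGCggcggca
MRPS18A, chr6:43687764-43687793, minus strand, lower: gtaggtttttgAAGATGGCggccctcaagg
MRPL50, chr9:101398577-101398606, minus strand, lower: ggatctcatcgAAGATGGCggcgcgatctg
MRPS27, chr5:72320206-72320235, minus strand, lower: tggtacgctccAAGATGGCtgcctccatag
MRPL46, chr15:88467362-88467391, minus strand, higher: tgggagaacgaAAGATGGCggcgcccgtaa

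The 170 bases around the start are shown for the genes with the largest changes and a promoter, MRPL43 and MRPL39 among the lower genes and MRPL53 and MRPS33 among the higher ones. Each runs from 160 bases before the start, and capitals mark a match to CCGGAAG, its reverse complement CTTCCGG or the NRF1 motif. MRPL43 has 1 ETS match shortly before the start and MRPL39 has none of the 3 motifs. MRPL53 has an ETS match on each strand, and MRPS33 has an NRF1 match far from the start and an ETS match at it.
MRPL43, chr10:100987488-100987657, minus strand, lower: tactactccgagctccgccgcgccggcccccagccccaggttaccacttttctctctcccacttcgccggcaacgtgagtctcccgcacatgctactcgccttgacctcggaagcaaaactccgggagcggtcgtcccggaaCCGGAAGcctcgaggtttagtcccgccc
MRPL39, chr21:25607472-25607641, minus strand, lower: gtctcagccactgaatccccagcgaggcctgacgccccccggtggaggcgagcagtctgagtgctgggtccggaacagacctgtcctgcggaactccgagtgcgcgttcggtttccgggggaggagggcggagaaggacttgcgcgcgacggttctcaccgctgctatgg
MRPL53, chr2:74472671-74472840, minus strand, higher: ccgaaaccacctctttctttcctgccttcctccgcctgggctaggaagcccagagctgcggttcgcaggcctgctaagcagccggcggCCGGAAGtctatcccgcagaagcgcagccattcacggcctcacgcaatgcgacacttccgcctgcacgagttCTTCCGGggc
MRPS33, chr7:141014943-141015112, minus strand, higher: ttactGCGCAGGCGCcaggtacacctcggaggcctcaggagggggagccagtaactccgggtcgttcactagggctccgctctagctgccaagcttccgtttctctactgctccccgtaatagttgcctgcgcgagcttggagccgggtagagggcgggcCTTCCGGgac

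Many of these genes lie head to head with another gene. Of the members with a promoter, 28 had a start on the opposite strand within 1000 bases of their own, and for 22 of them the neighbour was measured, in 21 pairs. In 0 of the 21 pairs were both genes called. Only starts in the promoter table could form a pair, so further head-to-head pairs may be missing from this count. MRPL43 and TWNK, the next gene to it in the gene table, were both lower but are not among these pairs. Whether their starts lie head to head was not settled here. MRPS18B fell while PPP1R10, a regulator of protein phosphatase 1, had an estimate of 0.20 (adjusted p = 0.0759). MRPL46 rose while MRPS11, itself a mitoribosomal gene 320 bases away, had an estimate of -0.07 (adjusted p = 0.511). MRPL32 rose while the proteasome subunit gene PSMA2 had an estimate of -0.10 (adjusted p = 0.426). For MRPS27 and MRPL50 the neighbours PTCD2 and ZNF189 had estimates of 0.00 and 0.08 and did not pass.

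In the converse case the neighbour fell and the mitoribosomal gene did not pass. GGA3, a sorting adaptor gene beside MRPS7, read 315, 309 and 322 in vehicle and 215, 203 and 213 in menthol (-0.59 ± 0.06, adjusted p = 0.000450). MRPS7 itself read 502, 501 and 514 in vehicle and 485, 483 and 494 in menthol (-0.05 ± 0.06, adjusted p = 0.514). EME1, a DNA-junction nuclease gene 45 bases from MRPL27, fell by 0.52 on the log2 scale (SE 0.10) while MRPL27 had an estimate of 0.03. SARS2, the mitochondrial seryl-tRNA synthetase gene 181 bases from MRPS12, fell by 0.32 (SE 0.08), and ABHD8 beside MRPL34 fell by 0.33 (SE 0.07). Of the 22 neighbours 5 were called, or 22.7%, beside 29.1% of all genes, and in 12 pairs neither gene was called. The 5 include MRPL46, itself a member that rose, which counts here as the neighbour of MRPS11. The difference between the genes of a pair was not tested.

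**Figure D3:**
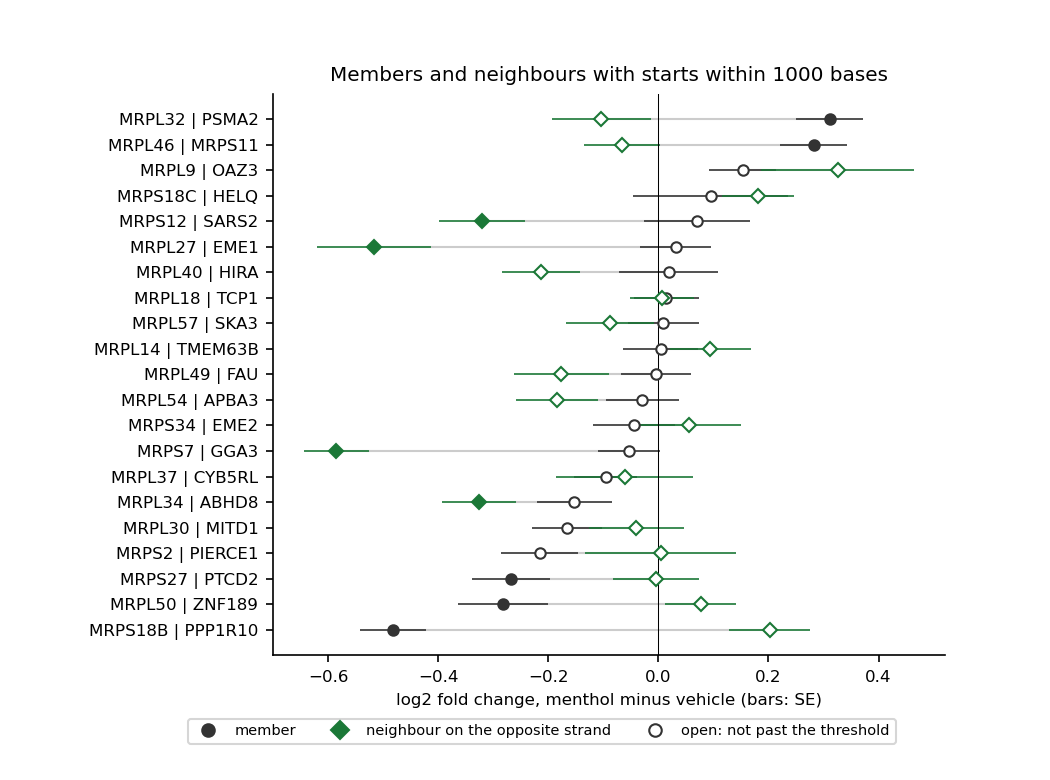
Log2 fold changes (menthol minus vehicle, bars 1 SE, n = 3 arrays a group) of the members and of their opposite-strand neighbours. Shown are the 21 measured pairs found in the promoter table with starts within 1000 bases. Filled symbols passed the threshold, and no row has both symbols filled.

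Partners of the mitoribosome also held calls in both directions. Of 4 measured subunits that carry other names, PTCD3 (-0.32 ± 0.07) and GADD45GIP1 (-0.36 ± 0.08) fell, which is 50%. All 4 lie among the brightest genes, of which 26.9% fell. Of 26 assembly and RNA-modification genes, 6 fell and 4 rose, which is 23.1% and 15.4%, with a median of 0.01. Of all genes 14.5% fell and 14.6% rose, and of the brightest ones, which hold 15 of the 26, 26.9% and 17.2%. The pseudouridine synthase gene RPUSD3 fell by 0.66 (SE 0.08), and the methyltransferase genes TFB1M (-0.34 ± 0.08) and MRM2 (0.36 ± 0.07) and the helicase gene DDX28 (0.36 ± 0.10) changed in different directions. The lower count of this list was 3 without menthol replicate 2, vehicle replicate 2 or vehicle replicate 3. Its higher count was 2 without menthol replicate 1 or 2 or vehicle replicate 2 or 3.

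Of 15 measured translation factors and proteins that hold mitochondrial messages, 6 fell and 0 rose, with a median of -0.14, and 7 of the 15 estimates lay above 0. The lower share was 40.0%, beside 14.5% of all genes and 26.9% of the brightest ones, which hold 10 of the 15. With genes under a log2 value of 6 removed, 1 rose. SLIRP, an RNA-binding partner of LRPPRC, read 7302, 7485 and 7630 in vehicle and 5332, 5403 and 5740 in menthol (-0.44 ± 0.06, adjusted p = 0.00167). LRPPRC (-0.30 ± 0.08), the ribosome recycling factor gene MRRF (-0.37 ± 0.06) and the elongation factor gene TUFM (-0.36 ± 0.06) were lower as well. The lower count was 3 without vehicle replicate 1, 2 or 3. Of 19 genes for charging mitochondrial tRNAs, 5 fell and 2 rose. The lower share of 26.3% stood beside 14.5% of all genes and 26.9% of the brightest ones, which hold 8 of the 19. IARS2 (-0.44 ± 0.08), LARS2 (-0.37 ± 0.08) and MARS2 (-0.35 ± 0.07) were among the lower genes and GATC (0.38 ± 0.06) among the higher ones. The higher count was 1 without any single array except menthol replicate 3.

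Genes that copy and transcribe mitochondrial DNA were lower in 8 of 16 cases and higher in 1, with a median of -0.19. The lower share was 50%, beside 14.5% of all genes and 26.9% of the brightest ones, which hold 10 of the 16. TWNK, the gene of the mitochondrial DNA helicase and the next gene to MRPL43 in the gene table, read 518, 489 and 462 in vehicle and 309, 298 and 325 in menthol (-0.66 ± 0.07, adjusted p = 0.000561). As for MRPL43, the groups did not overlap. POLRMT, the mitochondrial RNA polymerase gene (-0.49 ± 0.09), and POLG, the DNA polymerase gene (-0.47 ± 0.06), fell, while MTERF1, which encodes a transcription terminator, rose (0.62 ± 0.07). The higher count was 2 without menthol replicate 1, with array weights or with dim genes removed. Mitochondrially encoded genes had 0 of 15 names in the annotation and were not used here.

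Of 20 import genes 10 fell and 1 rose, with a median of -0.22. The lower share was 50%, beside 14.5% of all genes and 26.9% of the brightest ones, which hold 17 of the 20. The translocase genes TIMM9 (-0.53 ± 0.10), TOMM40 (-0.44 ± 0.08) and TOMM20 (-0.40 ± 0.09) were among the lower genes. So was PMPCA (-0.38 ± 0.06), which encodes 1 subunit of the mitochondrial processing peptidase. PMPCB, of its other subunit and named after its values were seen, was the gene that rose (0.25 ± 0.06). The lower count was 6 after quantile or cyclic loess normalization and without vehicle replicate 1 or 2. It was 5 without menthol replicate 2 or vehicle replicate 3. The lower share of the brightest genes under these settings was not computed, so whether the import share exceeded it there was not tested. The higher count was 0 without menthol replicate 2 or 3 or vehicle replicate 1 or 2. Of 9 regulators of nuclear genes for mitochondria 3 fell, namely MYC (-0.68 ± 0.06), PPRC1 (-0.42 ± 0.08) and ESRRA (-0.24 ± 0.08). This is 33.3%, beside 14.5% of all genes and 26.9% of the brightest ones, which hold 4 of the 9.

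The cytosolic ribosome gave a different count from the mitochondrial one. Of 58 measured cytosolic ribosomal protein genes 27 fell and 1 rose, with a median log2 fold change of -0.21, beside 17, 5 and -0.05 for the 73 mitochondrial ones. The lower share was 46.6%, beside 14.5% of all genes and 26.9% of the brightest ones, which hold 49 of the 58. RPS3 (-0.64 ± 0.06), RPS24 (-0.56 ± 0.09) and RPS13 (-0.52 ± 0.08) fell and RPS28 rose (0.62 ± 0.09). The lower count was 17 without menthol replicate 2 or vehicle replicate 3. It was 20 after quantile and 19 after cyclic loess normalization, beside 14 for the mitochondrial genes after either. The median of the cytosolic list after these normalizations was not computed. The higher count was 0 with the mean of all probesets of a gene or with single-probeset genes alone. The difference between the lists was not tested.

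**Figure D4:**
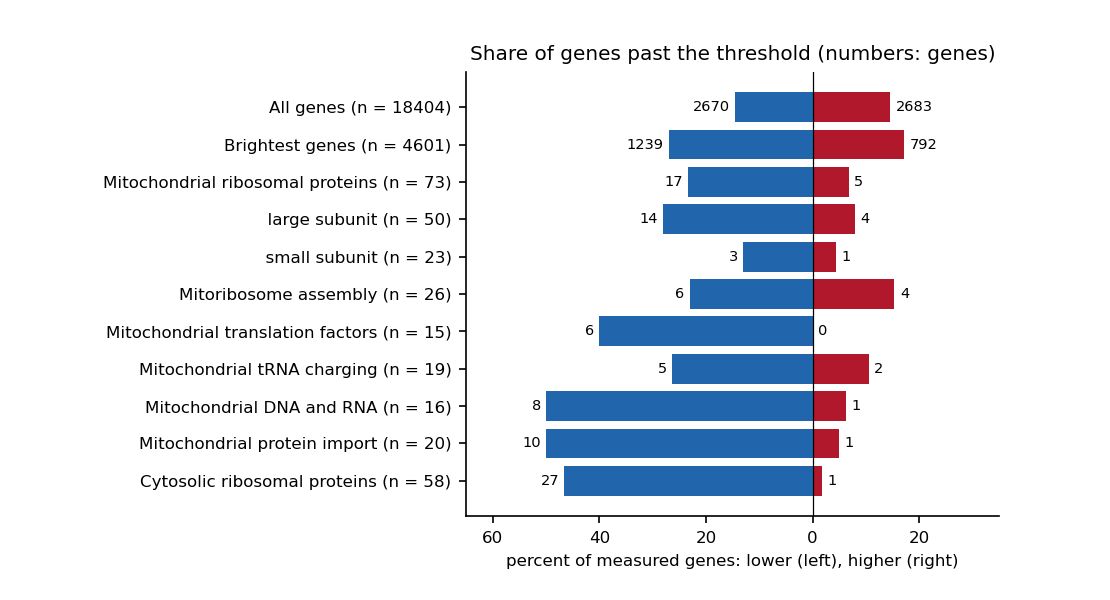
Share of measured genes past the threshold, lower to the left and higher to the right (percent), with the number of genes beside each bar, for all genes, the 4601 brightest genes, the mitoribosomal genes with their subunits, and the related lists. The mitoribosomal set has 17 lower genes of 73 and the cytosolic set 27 of 58, beside 1239 of the 4601 brightest genes.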

How the data were processed

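The authors deposited 1 table of intensity values for 6 arrays and 32321 probesets, made with RMA per the submitters' processing notes. The deposited intensity values ran from 1.57 to 14835 and were taken as linear, so log2 was applied first. RMA sets the arrays to a like distribution, so fold changes are relative to the other genes. Array medians were 47.4 to 49.1. Probesets with 1 platform symbol were kept, the brightest for each gene. limma 3.58.1 in R 4.3.3 (lmFit, eBayes, two-sided) compared 3 menthol with 3 vehicle arrays over 18404 genes. An exact permutation test of 3 against 3 cannot go below 0.10. Named are up to 12 increases and 14 decreases past the threshold, the MRPS18 genes, MRPL12, MRPS12, MRPS30, 3 genes on each side of the threshold, and up to 4 genes of each other list. Members and lists were chosen with earlier results of these data known. Alternatives were normalization, centring, dim-gene filters, probeset choice, prior, array weights, replicate block, a stricter threshold and leaving out each array. The fit was tested on simulated data.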

Additional observations from a re-analysis of the deposited data

How the results depend on the processing

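No member past the threshold changed direction in any of 17 alternatives. Of the 22, 13 kept their call in all 17 alternatives, namely MRPL12, MRPL2, MRPL21, MRPL32, MRPL38, MRPL39, MRPL4, MRPL42, MRPL43, MRPL53, MRPS18B, MRPS30 and MRPS33, and 14 kept it whichever array was left out. MRPL50, MRPS18A and MRPS27 also lost it after quantile or cyclic loess normalization and with the replicate block. The 5 higher members became 9 after either normalization, 10 with dim genes under a log2 value of 6 removed or with a trended robust prior, and 3 at a threshold of 0.01, where the 17 lower members became 10. Leaving out single arrays gave 4 to 6 higher and 11 to 18 lower, the lowest without vehicle replicate 3. The median of -0.05 became -0.000774 with cyclic loess and -0.000117 with quantile normalization, and -0.0993 to -0.0346 without single arrays, the lower end without menthol replicate 1. For the 109 genes of the other mitochondrial lists, 40 were lower and 8 higher. At 0.01 these were 18 and 4, and without single arrays 25 to 39 and 4 to 7, with 26 lower and 4 higher without menthol replicate 2 or vehicle replicate 2 and 25 and 5 without vehicle replicate 3. The cause was not tested, except that the stricter threshold and fewer arrays or genes act by construction. Same-numbered arrays did not pair (correlations of their deviations 0.0065, -0.0072 and 0.091), and a fit with the replicate block gave 5 higher and 14 lower members, and 7 and 34 for the other lists. Arrays limit precision by their number, and MRPS18C is dim.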
